A study of Homo sapiens with 6 samples.

Results

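Respiratory complex I (NADH:ubiquinone oxidoreductase) was examined through the nuclear genes that encode its subunits and the assembly factors that build it. Members were taken from the deposited count table as every protein-coding gene whose NCBI Gene number belongs to a symbol beginning with NDUFA, NDUFB, NDUFC, NDUFS, NDUFV or NDUFAF, with pseudogenes left out. This gave 46 of 29806 gene numbers, namely 37 subunits, 8 NDUFAF assembly factors and 1 readthrough gene. Polyadenylated RNA was sequenced from LNCaP, a human prostate cancer cell line. Of the 6 libraries, 3 came from wild-type parental cells (LNCaP parental) and 3 from LNCaP cells in which PACT, encoded by *PRKRA*, had been removed with CRISPR/Cas9 (PACT KO). Both groups were grown in RPMI-1640 medium with 10% fetal bovine serum, and RNA was taken with Trizol 48 h after plating, at about 80% confluency. Each library is a separate dish and all PACT KO dishes carry a single clone, so the tests measure the spread between dishes and not between clones.

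Complex I is the entry point for electrons from NADH into the mitochondrial respiratory chain. Its peripheral arm holds the N module, where NADH is oxidised, and the Q module, where iron-sulfur clusters pass the electrons to ubiquinone, while its membrane arm pumps protons and is described here as a proximal and a distal part. The core subunits carry out catalysis and are split between the nuclear and the mitochondrial genome, the accessory subunits surround and stabilise them, and assembly factors join the growing complex but are absent from the finished enzyme. Normal luminal prostate cells secrete citrate, whereas prostate cancer cells are known to oxidise it in their mitochondria. The 7 core subunits encoded in mitochondrial DNA (ND1 to ND6 and ND4L) have no row in the deposited counts, so they could not be analysed here.

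The libraries held 19930060 to 24940838 reads on genes. *PRKRA* had 882, 809 and 866 reads in the LNCaP parental libraries and 291, 331 and 243 in the PACT KO libraries, a log2 fold change of -1.57, the direction its label gives. All 8 luminal prostate markers were detected, with a summed level in CPM (read counts normalised to the TMM-scaled library size) of 3670.3 to 3702 across the LNCaP parental dishes and 3724 to 3771 across the PACT KO dishes. Of 3 basal markers (*KRT5*, *KRT14*, *TP63*), *KRT5* was at 0 in all libraries and the sum reached at most 0.185 CPM, and both endothelial markers were at 0. The sum of the 4 fibroblast markers ranged from 32.9 to 37.3 CPM over the LNCaP parental dishes and from 44.5 to 50.1 CPM over the PACT KO dishes, with *COL1A1* the 1 member called (log2 fold change 0.52) and *COL1A2* at 0, and the 3 immune markers summed to 2.04 to 2.26 and 1.46 to 1.68 CPM with *CD3E* at 0. The part of these genes in the results on complex I was not tested. In bulk RNA, fewer cells with a transcript and less transcript per cell cannot be told apart.

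Transcripts of complex I were lower in PACT KO for 23 of the 45 members that could be tested (51.1%), by small amounts, and higher for none. The question was whether loss of PACT changed these genes, and whether subunits and assembly factors did so alike. A gene was called when the FDR, the Benjamini-Hochberg adjusted p over all 14462 genes tested with edgeR's quasi-likelihood test, was under 0.01. Over all genes tested, 18.8% were called lower and 15.3% higher, and among the 9958 genes that averaged 10 CPM or more, a level all tested members reached and a limit set after their levels were seen, 24.1% were called lower and 17.2% higher. The median log2 fold change, PACT KO against LNCaP parental, was -0.12 over the members and 0.0004 over all genes tested, and 36 members had a negative value. edgeR gave 0 members higher also at an unadjusted p under 0.05, and DESeq2 and limma-voom gave 0 at the same FDR. No member was a differentially expressed gene in the study's sense (FDR under 0.01 and at least 1.5-fold), against 5.72% of all genes tested and 2.55% of those at 10 CPM or more. The smallest called change was in *NDUFA1*, which fell by 7.73%, and the largest in *NDUFB10*, which fell by 21.6%.

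**Figure D1:**
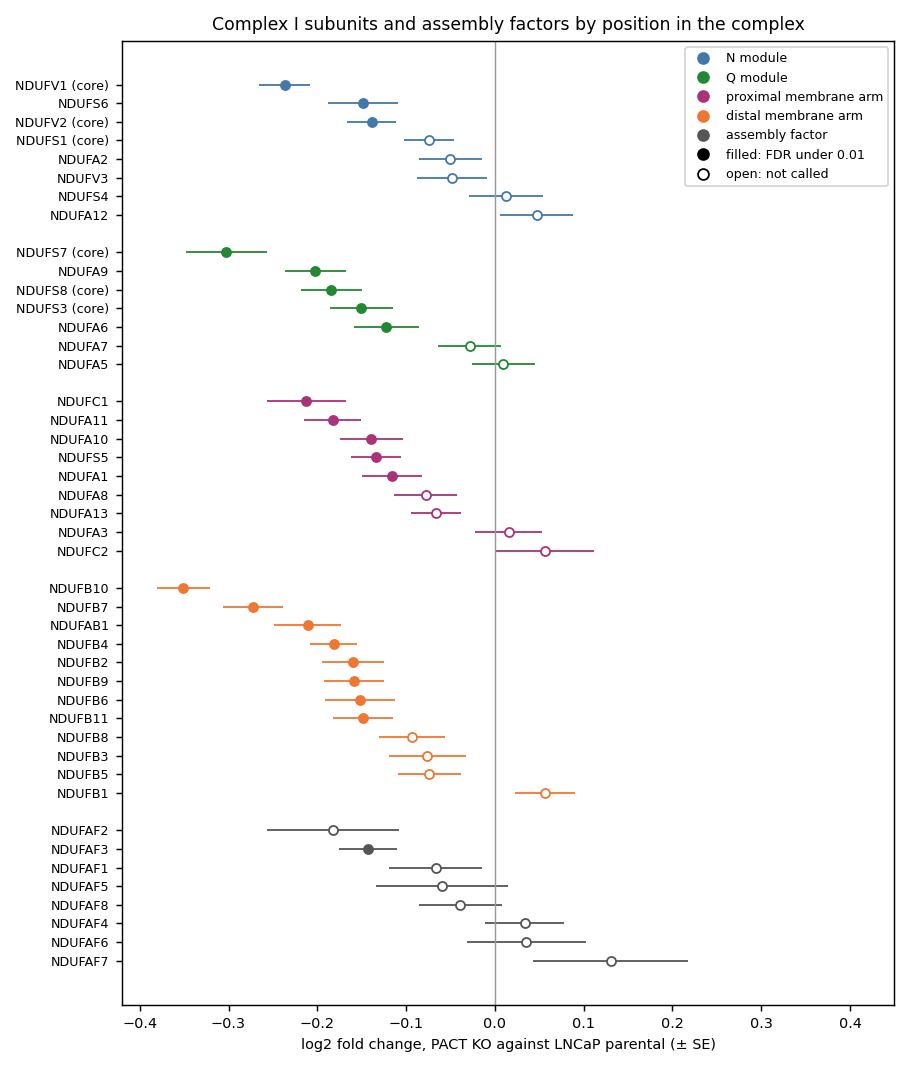
Fitted log2 fold change of the tested members reported by name, PACT KO against LNCaP parental, with its standard error as a bar and n = 3 libraries per group; rows are grouped by position in the complex, and filled points have an edgeR FDR under 0.01. All filled points lie left of 0, and 1 of them is an assembly factor.

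The level of all 3 PACT KO libraries lay below that of all 3 LNCaP parental libraries for 29 members, where 27.2% of all genes tested and 33.0% of those at 10 CPM or more did so. It lay above for 1 member, where 25.1% and 26.0% did so. With each gene set against its own LNCaP parental mean, the median over the 37 subunits was 101%, 100.1% and 98.9% in the LNCaP parental libraries and 91.7%, 91.8% and 89.6% in the PACT KO libraries. The same medians for the 8 assembly factors were 103%, 99.5% and 98.1% in LNCaP parental and 98.3%, 96.4% and 98.4% in PACT KO. The shift was therefore present in each PACT KO library for the subunits, while the assembly factor medians of the groups overlapped. Summed over the 37 subunits, transcripts came to 4366, 4323 and 4274 CPM in the LNCaP parental dishes. The PACT KO dishes held 3962, 3949 and 3892 CPM, a change of the mean of -8.95%.

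**Figure D2:**
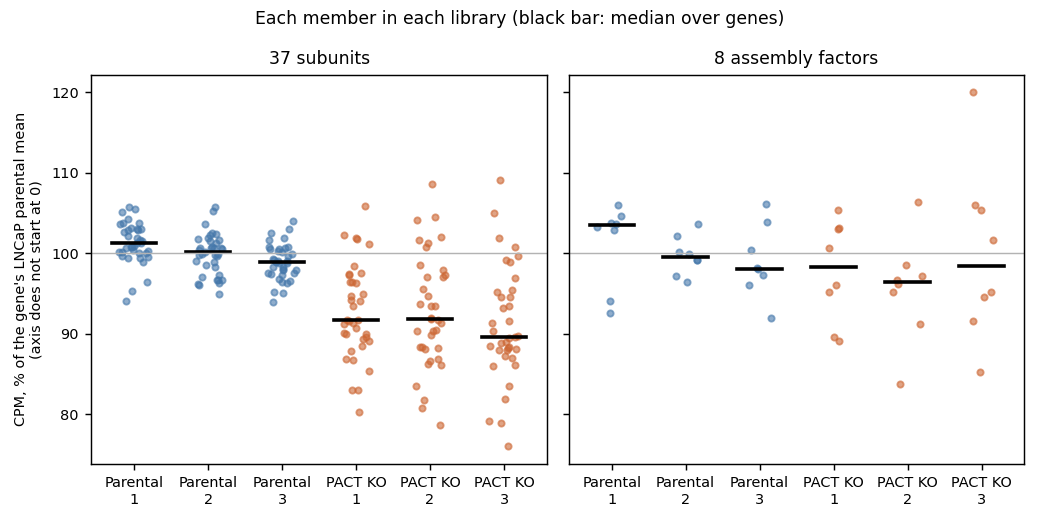
Level of each gene in each library as a percentage of that gene's LNCaP parental mean (points, axis not starting at 0), with the median over genes as a black bar, for subunits (left) and assembly factors (right). The subunit medians are 98.9% to 101% across the LNCaP parental libraries, and all 3 PACT KO medians lie lower, at 89.6% to 91.8%.

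By role, 22 of 37 subunits (59.5%) and 1 of 8 assembly factors (12.5%) were lower. The share lower was 18.8% over all genes tested and 24.1% at 10 CPM or more. The assembly factor share did not exceed these. The subunits averaged 31.6 CPM or more, and the share of all genes at such levels was not counted. The median log2 fold change was -0.13 for the subunits, and -0.11 under upper quartile scaling, where the median of all genes was 0.02. Of the 7 core subunits encoded in the nucleus, 6 were lower, with a median of -0.15 and no overlap between the groups for any of the 7. Of the 30 accessory subunits, 16 were lower, with a median of -0.12. The counts along the complex were 3 of 8 in the N module, 6 of 8 in the Q module, 5 of 9 in the proximal membrane arm and 8 of 12 in the distal membrane arm, with medians of -0.06, -0.14, -0.12 and -0.16. These are descriptions of lists, and no difference between them was tested.

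The core subunits of the N module take up the electrons. *NDUFV1* (chr11:67606936-67612554, GRCh38.p14) binds NADH and the flavin that accepts its electrons. It stood at 254, 252 and 245 CPM in LNCaP parental and 217, 204 and 215 CPM in PACT KO, with no overlap. It fell by 15.1% (log2 fold change -0.24, SE 0.03, edgeR FDR 1.06e-08). *NDUFV2*, its iron-sulfur partner, was at 210.2, 212 and 209 CPM against 193, 193 and 187 CPM. Its groups were apart by far more than their spread, and it fell by 9.17% (edgeR FDR 7.84e-05). *NDUFS1*, which carries several of the iron-sulfur clusters, was at 172 CPM in each LNCaP parental library and at 161, 167 and 163 CPM in PACT KO. The groups did not overlap, but the difference missed the threshold (log2 fold change -0.07, SE 0.03, edgeR FDR 0.0322).

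The Q module core subunits lead the electrons on to ubiquinone. *NDUFS7* (chr19:1383907-1395584), which holds the last iron-sulfur cluster before ubiquinone, was at 43.4, 48.8 and 46.3 CPM in LNCaP parental and 38.3, 37.3 and 36.6 CPM in PACT KO. It fell by 18.9%, the most of the core subunits (log2 fold change -0.30, SE 0.05, edgeR FDR 8.61e-07). *NDUFS8*, another iron-sulfur subunit, was at 105, 96.8 and 98.4 CPM against 87.9, 88.3 and 88.2 CPM. The PACT KO dishes hardly differed among themselves (SD 0.188 CPM, n = 3), and the gene fell by 12% (edgeR FDR 3.05e-05). *NDUFS3*, a core subunit without a cofactor, was at 80.5, 82.0 and 78.0 CPM against 72.1, 72.5 and 71.8 CPM (edgeR FDR 5.51e-04). Of the accessory Q module subunits, *NDUFA9*, a nucleotide-binding protein beside the ubiquinone site, was at 98.7, 91.7 and 95.1 CPM against 81.1, 84.1 and 83.0 CPM, and fell by 13.1% (edgeR FDR 8.02e-06).

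**Figure D3:**
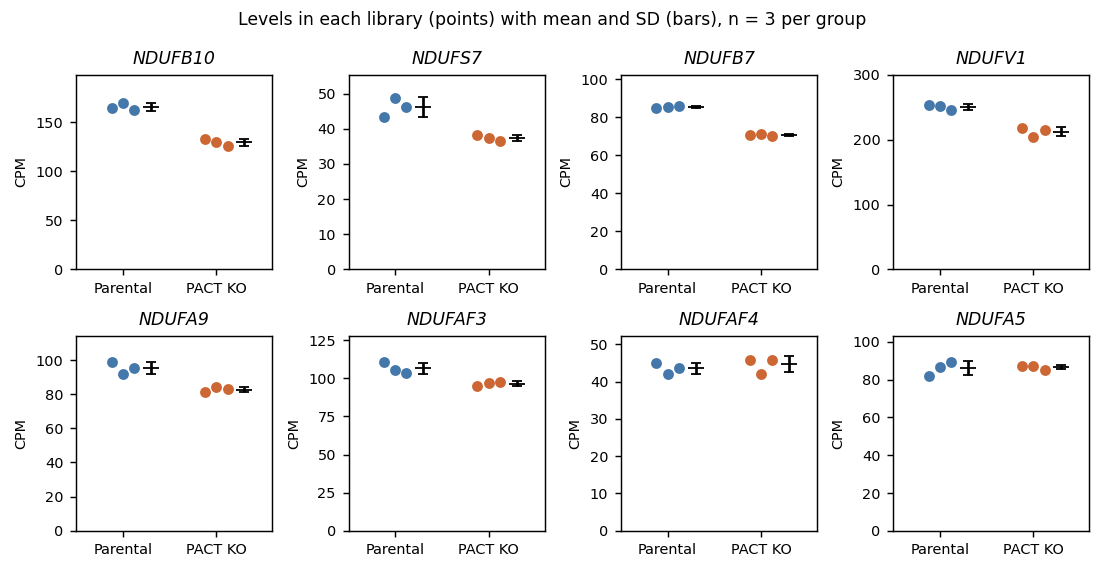
Level in CPM in each library (points) with the mean and SD (bars), n = 3 per group, for 5 subunits and 1 assembly factor that were lower in PACT KO (*NDUFB10*, *NDUFS7*, *NDUFB7*, *NDUFV1*, *NDUFA9*, *NDUFAF3*) and for *NDUFAF4* and *NDUFA5*, which were not called. The points of the groups are apart in the first 6 panels, as for *NDUFB10* at 166 and 129.8 CPM, and mixed in the last 2.

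The distal membrane arm held the largest change of the family. *NDUFB10* (chr16:1959538-1961975) is a disulfide-bearing subunit facing the intermembrane space. It had 3743, 3671 and 4024 reads in LNCaP parental and 3286, 3170 and 2547 in PACT KO, which is 165, 169.8 and 162 CPM against 133, 130.3 and 126 CPM. The groups were 166 ± 3.73 and 129.8 ± 3.54 CPM (SD, n = 3), and the log2 fold change was -0.35 (SE 0.03, edgeR FDR 3.00e-12). *NDUFB7*, a subunit of the same disulfide type on the same face, was at 84.9, 85.3 and 86.0 CPM against 70.9, 71.3 and 69.9 CPM. Its dishes lay within a narrow range in each group, and it fell by 17.2% (log2 fold change -0.27, SE 0.03, edgeR FDR 2.32e-08). *NDUFAB1*, the mitochondrial acyl carrier protein, was at 90.8, 81.6 and 85.8 CPM against 76.9, 74.1 and 71.8 CPM, and fell by 13.6% (edgeR FDR 1.73e-05). *NDUFB4*, a small membrane subunit with 8497 to 12053 reads per library, was at 484, 478 and 487 CPM against 438, 419 and 420.3 CPM, and fell by 11.8% (edgeR FDR 3.58e-07). It also has 12 pseudogenes in the RefSeq table, so reads of such copies could be counted on it. In the proximal arm, *NDUFA11*, a membrane subunit of the TIM17 family, was at 114, 112 and 116 CPM against 99.1, 101 and 102 CPM, and fell by 11.9% (edgeR FDR 9.06e-06).

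*NDUFB10* and *NDUFAB1* both lie on chromosome 16, where the 656 genes tested had a median log2 fold change of -0.11 and 31.4% were lower. Both genes lie further from 0 than that median, at -0.35 and -0.21, and the part of the chromosome in their values was not tested.

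The other 10 subunits called lower were accessory, all with log2 fold changes between -0.21 (*NDUFC1*) and -0.12 (*NDUFA1*). They were *NDUFS6* of the N module, *NDUFA6* of the Q module, *NDUFC1*, *NDUFA10*, *NDUFS5* and *NDUFA1* of the proximal arm, and *NDUFB2*, *NDUFB9*, *NDUFB6* and *NDUFB11* of the distal arm. Their groups did not overlap, though barely so for *NDUFS6*, with PACT KO 1 at 84.87 CPM and LNCaP parental 3 at 84.91 CPM. When 1 library was left out, 5 of these 10 calls were lost. *NDUFA1* lost its call without LNCaP parental 2, LNCaP parental 3 or PACT KO 3 (edgeR FDR up to 0.0693), and *NDUFA6* without LNCaP parental 1, LNCaP parental 3, PACT KO 1 or PACT KO 3 (edgeR FDR up to 0.0704). *NDUFA10* lost it without LNCaP parental 1, PACT KO 1 or PACT KO 3 (edgeR FDR up to 0.0148), *NDUFB6* without LNCaP parental 1 or PACT KO 3 (edgeR FDR up to 0.0187), and *NDUFS6* without any 1 of LNCaP parental 1, LNCaP parental 2, PACT KO 2 and PACT KO 3 (edgeR FDR up to 0.0248). *NDUFB2* overlaps the antisense gene *NDUFB2-AS1*, and *NDUFV2* overlaps *NDUFV2-AS1*. Among the other called subunits, the span of *NDUFC1* overlaps *NAA15*, that of *NDUFS6* *MRPL36*, that of *NDUFB6* *SMIM27* and that of *NDUFB11* *RBM10*. Of the members not called, *NDUFA2*, *NDUFA3*, *NDUFA5*, *NDUFC2*, *NDUFAF6* and *NDUFAF7* also overlap protein-coding genes. Whether reads were counted by strand is not given in the sources used here, so reads from the shared stretches cannot be told apart.

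In 15 subunits no change was called, and 6 of these had a log2 fold change above 0. *NDUFB1*, a small subunit of the distal arm, was at 88.2, 87.6 and 86.7 CPM in LNCaP parental and 92.6, 91.0 and 89.1 CPM in PACT KO. It was the 1 member whose PACT KO libraries all lay above, but the difference of 0.06 on the log2 scale (SE 0.03) missed the threshold (edgeR FDR 0.17). *NDUFA12*, the N module subunit that takes the place of the assembly factor *NDUFAF2*, was at 64.6, 62.6 and 61.2 CPM against 60.5, 68.2 and 65.9 CPM, so PACT KO reached both the lowest and the highest level (edgeR FDR 0.368). *NDUFC2* of the proximal arm was at 32.8, 31.1 and 29.1 CPM against 30.5, 32.4 and 33.8 CPM (edgeR FDR 0.44). Its span holds part of the readthrough gene *NDUFC2-KCTD14*, which had 0 reads in all 6 libraries, where a count of 0 allows up to 3 reads per library, and which was not tested. *NDUFA3*, a small proximal arm subunit, was at 72.1, 76.2 and 69.0 CPM against 74.0, 73.6 and 71.6 CPM (edgeR FDR 0.767). *NDUFS4*, an N module subunit needed for a stable peripheral arm, was at 46.9, 45.1 and 43.6 CPM against 46.1, 45.6 and 45.1 CPM (edgeR FDR 0.83). *NDUFA5*, which lies on the Q module, was at 82.0, 86.6 and 89.5 CPM against 87.5, 87.1 and 85.3 CPM, with the groups mixed (edgeR FDR 0.848). The 95% interval of the log2 fold change was -0.07 to 0.09 for *NDUFS4* and -0.06 to 0.08 for *NDUFA5*, both above the subunit median of -0.13, and *NDUFA5* has 12 pseudogenes in the RefSeq table. The other 9, which included *NDUFS1*, had values of -0.09 (*NDUFB8*, edgeR FDR 0.0398) to -0.03 (*NDUFA7*, edgeR FDR 0.549).

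Of the assembly factors, *NDUFAF3* was the 1 that was lower. *NDUFAF3* (chr3:49020452-49023495) binds the early Q module, and was at 110.4, 106 and 104 CPM in LNCaP parental and 94.9, 97.1 and 97.5 CPM in PACT KO. It fell by 9.43% (log2 fold change -0.14, SE 0.03, edgeR FDR 4.87e-04). Its span overlaps *DALRD3*, whose reads could not be told apart from it without strand. *NDUFAF4*, its partner on the Q module, was at 45.01, 41.99 and 43.7 CPM against 45.9, 42.1 and 45.9 CPM. The groups overlapped, with PACT KO 1 and PACT KO 3 a little above all LNCaP parental libraries (log2 fold change 0.03, SE 0.04, edgeR FDR 0.568). *NDUFAF2*, a chaperone of the late steps in which the N module is added, was at 19.99, 19.3 and 19.1 CPM against 18.5, 16.3 and 16.6 CPM. Its groups did not overlap, and at -0.18 (SE 0.07) its log2 fold change was as far from 0 as that of *NDUFB4*, but it missed the threshold (edgeR FDR 0.0438). Without PACT KO 1 it passed, at -0.24 (edgeR FDR 0.0089).

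The remaining assembly factors averaged 50 CPM or less and had mostly overlapping groups. *NDUFAF1*, part of the complex that assembles the membrane arm, was at 34.6, 32.1 and 32.5 CPM against 31.8, 31.5 and 31.5 CPM, without overlap (edgeR FDR 0.311). *NDUFAF5*, which modifies an arginine of NDUFS7, was at 18.1, 20.2 and 20.3 CPM against 17.5, 19.0 and 19.8 CPM (edgeR FDR 0.545). *NDUFAF8*, which stabilises NDUFAF5, was at 47.0, 45.3 and 40.7 CPM against 44.6, 42.6 and 41.9 CPM (edgeR FDR 0.528). The groups of both overlapped. *NDUFAF6*, an early assembly factor, was at 22.5, 21.7 and 20.8 CPM against 22.3, 21.3 and 22.9 CPM (edgeR FDR 0.7). *NDUFAF7*, a methyltransferase, had 264 to 325 reads per library, the fewest of the tested members, and was at 11.6, 12.3 and 13.1 CPM against 12.7, 13.2 and 14.8 CPM. Its log2 fold change was the highest of the family at 0.13 (SE 0.09), within its error (edgeR FDR 0.231).

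Fewer reads lay behind the values of the assembly factors than behind those of the subunits. The median over genes of the mean level was 84.0 CPM for subunits and 27.1 CPM for assembly factors, a measure of the reads behind each value, since CPM is not corrected for transcript length. The median SE of the log2 fold change was 0.04 and 0.06. At 50 CPM or less, 1 of 3 subunits (*NDUFS7*) and 0 of 7 assembly factors were lower, and with edgeR 1 of these 7, *NDUFAF2*, had an unadjusted p under 0.05. Over all genes tested 18.8% were lower, and the share of all genes at 50 CPM or less was not counted. Of the 7 assembly factors not called, 3 (*NDUFAF1*, *NDUFAF2*, *NDUFAF5*) had a 95% interval that reached the subunit median, so a change of that size lay within their error, and 4 (*NDUFAF4*, *NDUFAF6*, *NDUFAF7*, *NDUFAF8*) had an interval above it. For *NDUFAF8* the margin was narrow, with a lower bound of -0.130 beside a subunit median of -0.134. The part of depth in the contrast of subunits and assembly factors was not tested.

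**Figure D4:**
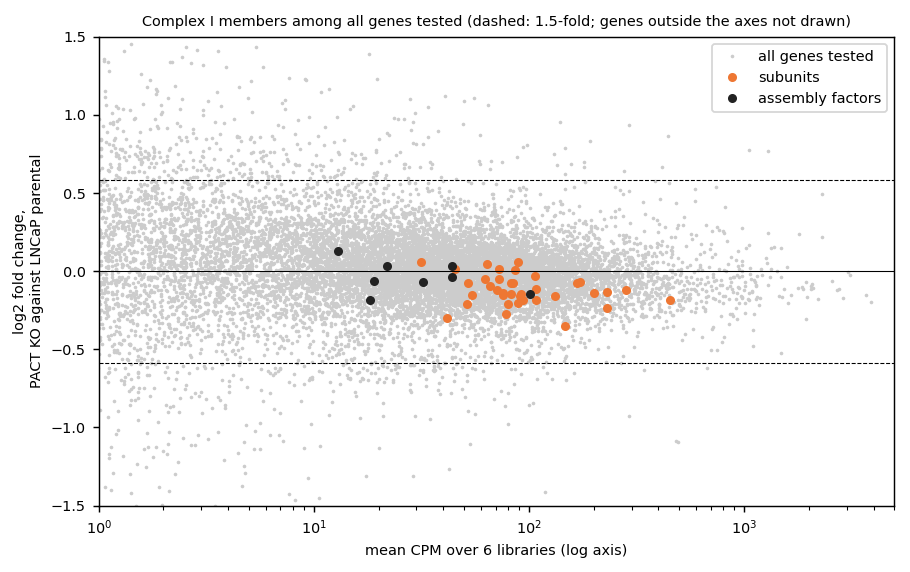
Fitted log2 fold change of all genes tested (grey) against the mean level over the 6 libraries in CPM (log axis), with subunits in orange and assembly factors in black; dashed lines mark 1.5-fold, and genes outside the axes are not drawn. All members lie inside the dashed lines, from -0.35 to 0.13, and 7 of the 8 assembly factors lie at 50 CPM or less.

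The letters in front of these genes were read as well, since nuclear respiratory factor 1 (NRF1) and other factors are known to act at promoters of respiratory chain genes. The 250 bases before the RefSeq start (GRCh38.p14) were at hand for 40 of the tested members, 20 lower and 20 not called. The NRF1 letters, GCGCA then any base then GCGC on either strand, were found in 5 of the 40, which were 3 of the 20 lower members and 2 of the 20 others, and in 6.20% of 27305 genes. The sequences of 4 members are shown 5′ to 3′ on the strand of the gene, with each match in capitals. *NDUFB10* (chr16:1959288-1959537, plus strand), with the largest fall, had no match. *NDUFB4* (chr3:120596086-120596335, plus strand), also lower, and *NDUFA3* (chr19:54102605-54102854, plus strand), not called, each had 2. *NDUFA9* (chr12:4648864-4649113, plus strand), lower, had 1.
NDUFB10: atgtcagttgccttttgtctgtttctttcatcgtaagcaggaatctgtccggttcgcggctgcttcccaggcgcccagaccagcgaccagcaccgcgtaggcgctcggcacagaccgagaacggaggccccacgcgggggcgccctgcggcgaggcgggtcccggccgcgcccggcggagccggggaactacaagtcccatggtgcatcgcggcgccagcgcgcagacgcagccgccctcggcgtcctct
NDUFB4: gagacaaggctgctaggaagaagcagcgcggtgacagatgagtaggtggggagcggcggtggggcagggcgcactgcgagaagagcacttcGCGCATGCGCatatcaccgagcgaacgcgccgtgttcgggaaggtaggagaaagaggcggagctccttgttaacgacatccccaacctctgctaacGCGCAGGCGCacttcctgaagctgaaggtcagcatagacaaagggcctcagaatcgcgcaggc
NDUFA3: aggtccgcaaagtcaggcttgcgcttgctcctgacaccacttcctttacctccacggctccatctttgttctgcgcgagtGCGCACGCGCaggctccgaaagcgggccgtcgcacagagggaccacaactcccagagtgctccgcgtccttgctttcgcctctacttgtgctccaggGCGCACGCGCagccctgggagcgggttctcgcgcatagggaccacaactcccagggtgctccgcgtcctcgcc
NDUFA9: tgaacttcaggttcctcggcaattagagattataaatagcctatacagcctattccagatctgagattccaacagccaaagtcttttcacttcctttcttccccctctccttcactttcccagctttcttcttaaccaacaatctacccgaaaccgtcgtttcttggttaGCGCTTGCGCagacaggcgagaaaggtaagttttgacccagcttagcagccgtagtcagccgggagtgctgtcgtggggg

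The matches lay 159 to 150 and 63 to 54 bases before the start in *NDUFB4*, 170 to 161 and 73 to 64 in *NDUFA3*, and 80 to 71 in *NDUFA9*. The remaining matches were in *NDUFA11*, lower, and *NDUFA12*, not called. The ETS core CCGGAAG, on either strand like the letters that follow, was found in 7 of 40 members (3 lower, 4 others) and 10.2% of genes, and the ATF and CREB element TGACGTCA in 2 of 40 (*NDUFA10* and *NDUFB2*, both lower) and 2.03% of genes. The estrogen-related receptor letters TCAAGGTCA were in 0 of 40 and 0.39% of genes. No member held more than 1 kind of these letters. A match describes the sequence and is not evidence that a factor binds there.

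Genes that work beside complex I were counted from lists of known members. Of 11 assembly factors whose symbols do not begin with NDUFAF, 4 (36.4%) were lower, with a median log2 fold change of -0.09. The share lower was 18.8% over all genes tested and 24.1% at 10 CPM or more. *TMEM186* (-0.35), *ECSIT* (-0.30) and *ACAD9* (-0.14) belong with *NDUFAF1* to the complex that assembles the membrane arm, and *FOXRED1* (-0.21) is an oxidoreductase of later steps. *TMEM186* lies on chromosome 16, where the median log2 fold change over the genes tested was -0.11. The part of the chromosome in its value was not tested. *ACAD9* missed the threshold without PACT KO 1 (edgeR FDR 0.0214). *ECSIT* was at 47.7, 45.2 and 44.7 CPM in LNCaP parental and 37.4, 37.3 and 37.3 CPM in PACT KO (edgeR FDR 4.84e-07). The fifth by FDR, *DMAC1*, missed the threshold narrowly (-0.11, edgeR FDR 0.01 after rounding) and passed it without PACT KO 3 (edgeR FDR 0.00858). *TMEM126B*, of the same membrane arm complex, stood at 0.08 (edgeR FDR 0.147). The assembly factors of this list thus differed among themselves, and none was higher.

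Subunits of the other complexes that are encoded in the nucleus were counted in the same way. Of 40 subunits of complexes II to V, 30 (75.0%) were lower and 0 higher, with a median of -0.15, beside 59.5% and -0.13 for complex I subunits. Among all genes tested, 18.8% were lower, and 24.1% of those at 10 CPM or more. By complex, the count was 4 of 4 in complex II, 7 of 9 in complex III, 4 of 10 in complex IV and 15 of 17 in complex V, with medians of -0.16, -0.19, -0.09 and -0.15. The largest changes were in *CYC1*, the cytochrome c1 subunit of complex III (-0.35, edgeR FDR 1.73e-12), and *SDHB*, the iron-sulfur subunit of complex II (-0.31, edgeR FDR 4.57e-08). *COX4I1* led complex IV (-0.22, edgeR FDR 6.98e-09), and *ATP5F1D*, in the stalk of ATP synthase, led complex V (-0.27, edgeR FDR 3.42e-09). *COX4I1* lies on chromosome 16 like *NDUFB10*, and the part of that chromosome in its value was not tested. Summed over these 40 genes, the change of the mean level was -10.4%, against -8.95% for the 37 complex I subunits.

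**Figure D5:**
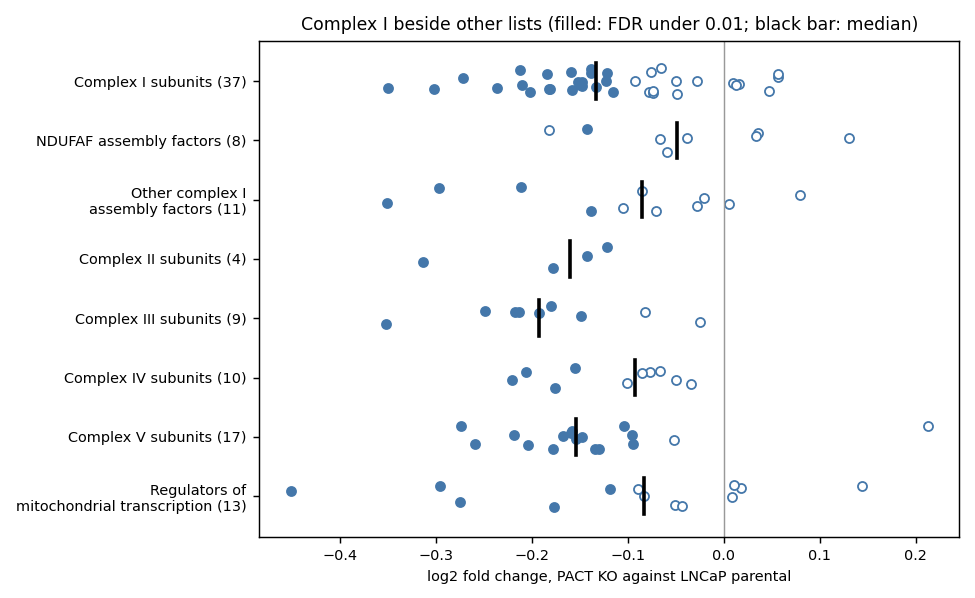
Fitted log2 fold change, PACT KO against LNCaP parental, of each gene in the complex I lists, the subunits of complexes II to V and the regulators of mitochondrial transcription (points, number of genes tested in brackets), with filled points at an edgeR FDR under 0.01 and the median of each list as a black bar. The medians run from -0.19 for complex III to -0.05 for the NDUFAF assembly factors, and no filled point lies right of 0.

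A pair of genes that once carried NDUFA symbols now count with complex IV and were not members. *COXFA4* (formerly *NDUFA4*), a complex IV subunit, was at 285, 284 and 275 CPM against 258, 295 and 280.0 CPM, with overlapping groups (edgeR FDR 0.707). *COXFA4L2* (formerly *NDUFA4L2*), its hypoxia-inducible relative, had only 65, 47 and 84 reads in LNCaP parental and 48, 41 and 36 in PACT KO. It passed both thresholds, at a log2 fold change of -0.65 (SE 0.17, edgeR FDR 0.00233). That call was lost with DESeq2 (FDR 0.03), without LNCaP parental 3 (edgeR FDR 0.0469) and without PACT KO 2 (edgeR FDR 0.01).

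Of the 14 regulators of mitochondrial transcription and biogenesis, 13 could be tested and 5 (38.5%) were lower. Over all genes tested the share was 18.8%, and 24.1% at 10 CPM or more. *PPARGC1B* (-0.45, edgeR FDR 9.16e-06) and *PPRC1* (-0.30, edgeR FDR 9.85e-09) are coactivators of the PGC-1 family, and *ESRRA* (-0.28, edgeR FDR 2.73e-08) is the estrogen-related receptor that they bind. *PPARGC1B* was at 18.5, 19.1 and 17.8 CPM in LNCaP parental and 13.4, 14.0 and 13.1 CPM in PACT KO. *TFB2M* (-0.18, edgeR FDR 0.00386) and *TFAM* (-0.12, edgeR FDR 0.00267) start transcription of mitochondrial DNA. Both of the last lost their call with DESeq2, with upper quartile scaling, without LNCaP parental 1 and without LNCaP parental 2, *TFAM* also without PACT KO 3, and *TFB2M* also without LNCaP parental 3, PACT KO 1 or PACT KO 2 (edgeR FDR up to 0.044). The count was 3 with DESeq2, with upper quartile scaling, without LNCaP parental 1 and without LNCaP parental 2. *NRF1* itself was at 24.8, 23.5 and 23.4 CPM against 22.5, 23.9 and 23.2 CPM, with overlapping groups (edgeR FDR 0.614). *GABPA*, of the same list, went the other way, at 35.0, 38.2 and 38.4 CPM against 42.6, 40.7 and 39.9 CPM. Its PACT KO libraries all lay above, but it missed the threshold (log2 fold change 0.14, edgeR FDR 0.012). *PPARGC1A* had 4 to 10 reads per library and was not tested.

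The 24 genes of the mitochondrial genome with a row in the counts took 1.97% to 2.01% of the reads of LNCaP parental dishes. In PACT KO dishes they took 2.496% to 2.86%. The ND genes are not among them, so this is not the share of the whole mitochondrial genome. This share was made of ribosomal and transfer RNAs, and both ribosomal RNAs were higher in PACT KO, *RNR1* by 0.49 and *RNR2* by 0.36 on the log2 scale (edgeR FDR 3.23e-08 and 3.03e-13). For *RNR1*, PACT KO 1 stood apart at 3370.0 CPM beside 2364 and 2350.0 CPM in the other PACT KO dishes and 1894 to 1937 CPM in LNCaP parental. Without PACT KO 1 its log2 fold change was 0.30 (edgeR FDR 7.1e-17), and with DESeq2 *RNR1* missed the threshold (FDR 0.0198). With the mitochondrial genome left out of the fit, 23 complex I members were lower, as with it.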

How the data were processed

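RNA-seq of polyadenylated RNA from 3 LNCaP parental and 3 PACT KO dishes was used. Per the labels' processing notes, the authors used bcl2fastq 2.20.0.422, STAR 2.5.3a, StringTie 1.3.3 and featureCounts 1.5.3 with genome build hg38, and deposited raw counts, whole reads per gene by NCBI Gene number. The annotation and the strand setting are not given in the sources used here. Symbols were matched through the RefSeq table (GRCh38.p14) for 27540 gene numbers (92.4%), which held 99.859% of the counts, and 1 row without a gene number (0.0688% to 0.0708% of reads) was left out. The totals per library were 19930060 to 24940838 reads on genes, and the common dispersion was 8.41e-04, a biological coefficient of variation of 2.9% between dishes.

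Counts were fitted with edgeR 4.0.16 in R 4.3.3 (TMM scaling, filterByExpr defaults, 2-sided quasi-likelihood F-test). P values were adjusted by Benjamini-Hochberg over 14462 genes, and a gene was called at FDR under 0.01. A differentially expressed gene also changed at least 1.5-fold, after the study's own definition. CPM values are scaled by TMM, and percentages of change come from the fitted log2 fold change. The edgeR standard error was taken as the absolute log2 fold change divided by the square root of the F statistic. Intervals are 1.96 of these standard errors to either side. The script was checked on simulated counts. Alternatives were DESeq2 1.42.0, limma-voom (limma 3.58.1), RLE and upper quartile scaling, no filter, at least 10 counts in every library, the replicate number as a block, an FDR of 0.05, leaving out the mitochondrial genome and leaving out each library. Promoter windows and spans are from RefSeq, GRCh38.p14.

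Every member entered the counts, and 1 is not reported here by name. Given in full were the other core subunits, the 8 subunits with the smallest FDR in each direction (6 where the log2 fold change was above 0), all NDUFAF factors, *COXFA4*, *COXFA4L2* and the member under the filter, and at most 5 genes of each other list. *NRF1*, *GABPA*, *TMEM126B*, *PPARGC1A* and the mitochondrial ribosomal RNAs were added after their values were seen. Members and lists were chosen with earlier results of these data known.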

Additional observations from a re-analysis of the deposited data

How the results depend on the processing

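Over 14 alternatives, all 23 members called lower kept a log2 fold change below 0, and 18 of them were called in each. The exceptions were *NDUFA1*, *NDUFA10*, *NDUFA6*, *NDUFB6* and *NDUFS6*. The count of members lower was 18 with DESeq2, 23 with limma-voom, 23 with RLE scaling and 21 with upper quartile scaling, and 18 to 22 when 1 library was left out. The count of assembly factors lower was 2 at an FDR under 0.05 and 1 to 2 when 1 library was left out. Regulators lower numbered 3 with DESeq2, 3 with upper quartile scaling and 3 to 4 when 1 library was left out. The subunit median was -0.11 under upper quartile scaling, where the median of all genes was 0.02, and -0.14 to -0.12 when 1 library was left out. The assembly factor median was -0.0527 to -0.0148 when 1 library was left out. The cause was not tested for any of these.

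Genes near 0 changed sign when 1 library was left out. Their ranges were -0.0964 to 0.0042 for *NDUFAF8* and -0.0243 to 0.0425 for *NDUFA5* (sign changed without LNCaP parental 1), -0.0172 to 0.0515 for *NDUFA3* and -0.0104 to 0.0386 for *NDUFS4* (without LNCaP parental 3), and -0.0589 to 0.0247 for *NDUFA7* and -0.0637 to 0.0385 for *COXFA4* (without PACT KO 1). *COXFA4* stood at 0.0073 with upper quartile scaling.

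Replicate numbers did not pair the dishes. Deviations from the group means correlated at -0.108, 0.011 and -0.08 between same-numbered libraries, and not every library correlated best with its own number. With the replicate number as a block, 22 members were lower, and *NDUFA6* was the call lost (edgeR FDR 0.0127). The tested members had 264 to 12053 reads per library, with a median standard error of 0.06 for assembly factors and 0.04 for subunits.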
